A study of Mus musculus with 5 samples.

Results

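The Wnt pathway genes examined here are 58 of the 55450 genes annotated on the mouse genome build GRCm38. They were listed by name in 5 classes, with 19 Wnt ligands, 10 Frizzled receptors, 13 secreted antagonists, 7 R-spondins and Lgr receptors, and 9 feedback genes and TCF/LEF factors. The measurements are H3K27me3 ChIP-seq peak lists from wild-type mouse dermal fibroblasts, with 2 libraries at E14.5 and 2 at E18.5. The sample labels give embryonic days 14 and 17 for these stages, and the names of the paper are used here. The mice had a C57BL/6 background, no group carried a transgene or treatment, and the cells of both stages had been grown in culture before fixation. Whether the 2 replicates of a stage came from separate animals is not stated, so differences between them may be technical.

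H3K27me3 is a histone mark that Polycomb repressive complex PRC2 lays down over genes that are kept silent, often as broad domains around start sites rich in CG dinucleotides. Wnt ligands are secreted lipid-modified proteins that bind Frizzled receptors and the co-receptors Lrp5 and Lrp6, which stabilises β-catenin and lets it work with TCF/LEF factors at target genes. Secreted antagonists capture ligands (Sfrp, Frzb and Wif1), block the co-receptors (Dkk1, Sost and Sostdc1) or remove the ligands' lipid (Notum), whereas R-spondins acting through Lgr receptors keep Frizzled receptors at the cell surface. In embryonic skin, Wnt signals from the epidermis are known to act on the dermis before and during hair follicle induction.

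Each member was scored in each list by the peaks that overlapped the 3000 bp either side of any annotated start site. Covered length is the number of base pairs under peaks inside these windows, which together span 6001 to 19581 bp per member, depending on how many start sites the gene has. The percentile is the rank of a member's highest peak by the authors' fold enrichment within its own list, with 100 the highest. The lists differed in size. The E14.5 lists held 21546 and 16574 peaks over 52.8 and 32.1 Mb, and the E18.5 lists held 10429 and 7107 peaks over 20.0 and 14.3 Mb. The files carry no read counts, so the depth behind a peak is unknown, and in these bulk samples a mark on fewer cells and a weaker mark on each cell cannot be told apart. As a check of the labelled cell type, all 10 fibroblast genes examined, among them Col1a1, Pdgfra, Twist2 and Prrx1, were free of peaks in all 4 lists. Of the markers of other cell types, the epithelial genes Cdh1, Epcam and Grhl3, the endothelial gene Kdr, the neural crest gene Sox10 and the muscle gene Myod1 had a peak in every list. These were 3 of 6 keratinocyte, 1 of 4 endothelial, 1 of 3 melanocyte and Schwann cell and 1 of 3 muscle markers. Krt14, Krt5, Trp63, Pecam1, Cdh5, Tek, Mitf, Dct, Myog and the blood genes Ptprc, Cd53 and Spi1 had no peak in any list, and Myf5 was marked at E14.5 only, so a lack of peaks did not set the fibroblast genes apart from these markers.

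A majority of the Wnt pathway genes carried the mark. A peak lay near 45 and 41 of the 58 members in the E14.5 libraries and near 36 and 33 in the E18.5 libraries. In both E14.5 libraries 40 members (69.0%) were marked, against 19.5% of the 21951 protein-coding genes and 11.6% of all genes. In both E18.5 libraries 31 members were marked, against 12.2% of protein-coding genes. In all 4 lists 30 members had a peak, compared with 12.0% of protein-coding genes, and 11 members had none, compared with 74.1%. Of the 46 members with a peak in either E14.5 replicate, 40 (87.0%) had it in both, and at E18.5 31 of 38 (81.6%) did. Among protein-coding genes these shares were 76.2% and 77.5%.

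**Figure D1:**
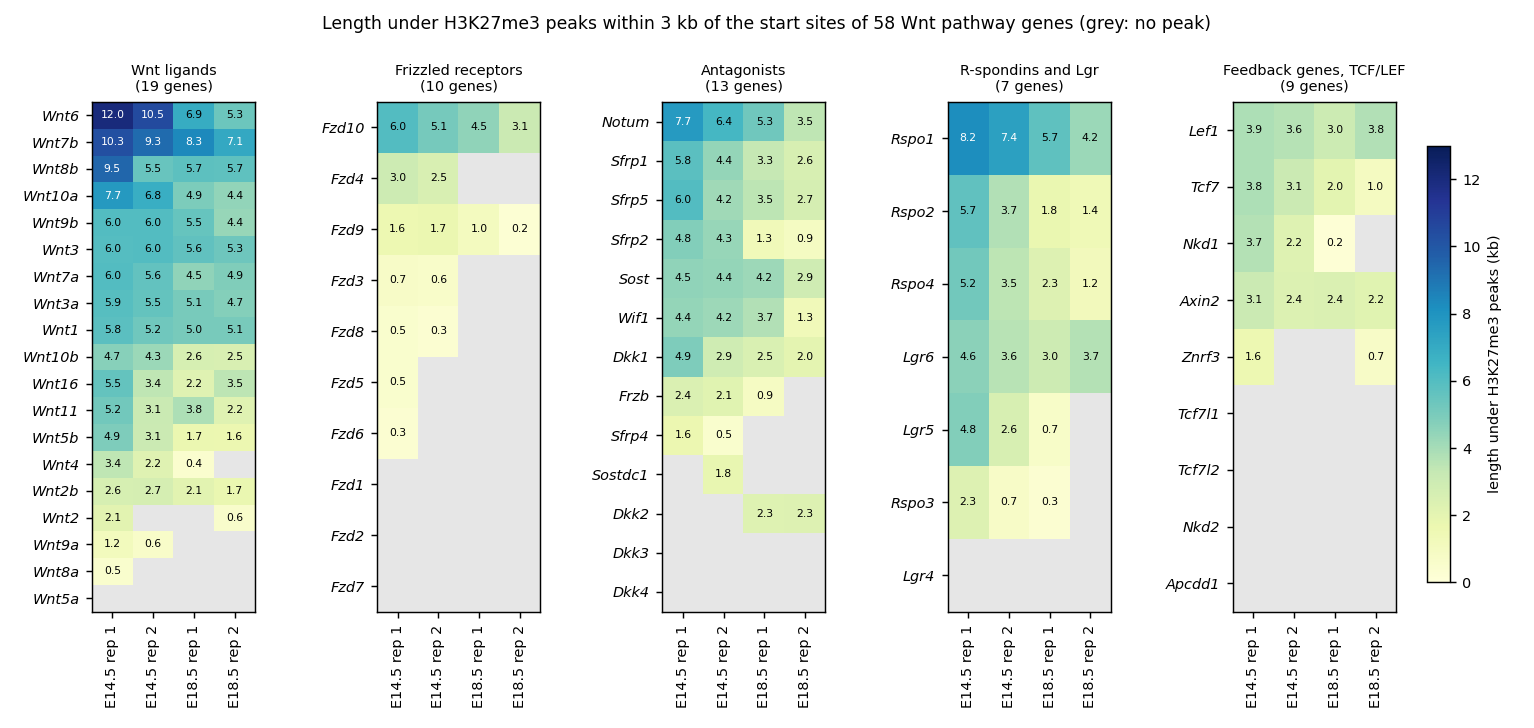
Length under H3K27me3 peaks (kb, colour and printed number) within 3 kb of the start sites of each of the 58 members (rows, by class, ordered by mean E14.5 length) in each of the 4 libraries (columns). Grey cells have no peak. The 14 ligands with a peak in every library stand out, as do the grey rows of 11 members, and Dkk2 is the one row with peaks at E18.5 alone.

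The members' covered length was shorter at E18.5. Summed over the 58 members it came to 200979 and 158241 bp at E14.5 against 118512 and 98585 bp at E18.5, a decrease of 39.6% of the mean (179610 ± 30220 bp to 108548 ± 14090 bp, SD, n = 2). Over all protein-coding genes the same sum decreased by 46.6%. Of the 40 members marked in both E14.5 libraries, 34 (85.0%) had less covered length in both E18.5 libraries than in either E14.5 library, and 84.2% of the marked protein-coding genes did, so the members' share was close to the background. The median decrease per marked member was 41.9%, and per marked protein-coding gene 58.2%. With 2 libraries a stage the exact two-sided permutation test over samples cannot go below p = 0.333, so no member's difference could pass a threshold of 0.05. The fall also moved with the size of the lists. When each list was reduced to its highest peaks by q-value until all 4 covered 14.3 Mb, the decrease over the members was 4.84%, 14 members were shorter, and 16 were marked at E14.5 against 26 at E18.5. The share of a list's length that lay in the members' windows was 3806 and 4933 bp per Mb at E14.5 and 5927 and 6876 bp per Mb at E18.5. For all protein-coding genes the summed covered length per Mb of list rose too, from 348358 and 444978 to 484708 and 540795 bp per Mb. In that sum a base pair inside the windows of several genes counts once for each, so it is not a share of the list.

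**Figure D2:**
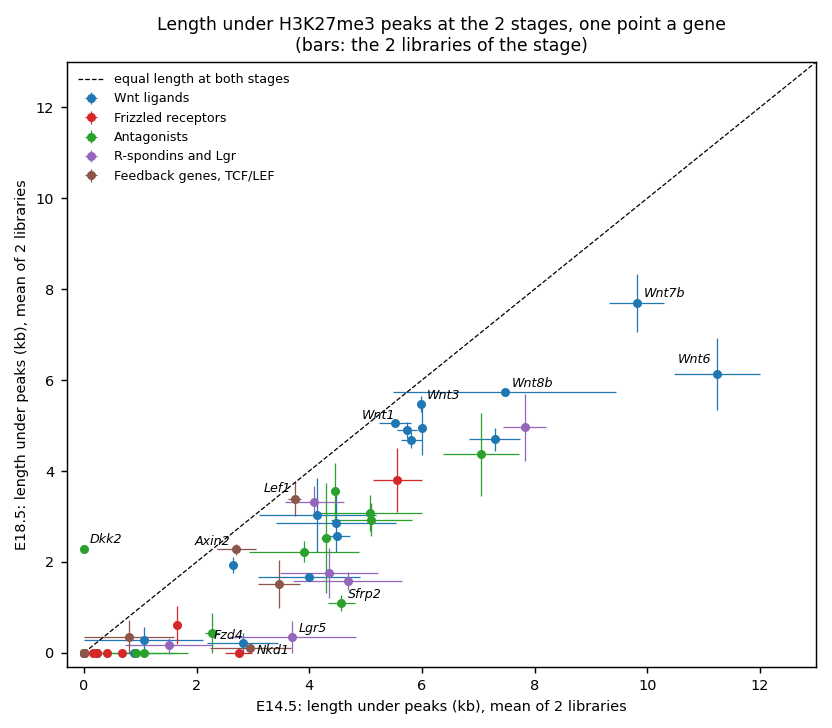
Mean length under peaks at E14.5 (x axis, kb) against E18.5 (y axis, kb), one point for each of the 58 members, coloured by class, with bars reaching the 2 libraries of each stage. Nearly all marked members lie under the dashed line of equal length, Wnt1, Wnt3, Lef1 and Axin2 lie near it, Nkd1, Lgr5 and Fzd4 lie near the x axis, and Dkk2 lies on the y axis.

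Promoter sequences are shown for 8 members that stand for the patterns of presence, since the letters around a start site are what the peaks cover or avoid. They are RefSeq promoters of the build GRCm38.p6, 250 bases before the start and 50 after, given 5′ to 3′ on the gene's strand with each CG dinucleotide in capitals. A promoter was found for 39 of the 58 members, and those of Wnt5a, Wnt7b, Wnt8a, Wnt10a, Fzd2, Fzd3, Fzd6, Fzd8, Sfrp1, Sfrp4, Dkk3, Dkk4, Rspo2, Rspo3, Lgr5, Notum, Znrf3, Apcdd1 and Sostdc1 were not used here. Wnt1 at chr15:98789607-98789906 (+) and Lef1 at chr3:131110073-131110372 (+) were under a peak over all 300 bases in every library.
Wnt1: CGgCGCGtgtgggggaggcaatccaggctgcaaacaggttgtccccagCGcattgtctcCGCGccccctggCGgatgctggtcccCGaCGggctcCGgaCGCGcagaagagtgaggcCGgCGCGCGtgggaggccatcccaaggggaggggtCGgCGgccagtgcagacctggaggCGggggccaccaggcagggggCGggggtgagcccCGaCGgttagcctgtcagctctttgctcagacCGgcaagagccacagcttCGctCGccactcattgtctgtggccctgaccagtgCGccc
Lef1: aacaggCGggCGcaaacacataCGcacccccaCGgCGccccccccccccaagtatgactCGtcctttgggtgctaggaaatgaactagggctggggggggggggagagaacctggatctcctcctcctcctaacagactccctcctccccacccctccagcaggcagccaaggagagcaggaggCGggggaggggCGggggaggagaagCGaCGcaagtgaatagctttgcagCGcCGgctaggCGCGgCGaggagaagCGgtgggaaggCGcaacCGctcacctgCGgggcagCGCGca
The promoter of Fzd10 at chr5:128600856-128601155 (+) was covered in E14.5 replicate 1 and free of the mark in the other 3 lists, while peaks flanked it.
Fzd10: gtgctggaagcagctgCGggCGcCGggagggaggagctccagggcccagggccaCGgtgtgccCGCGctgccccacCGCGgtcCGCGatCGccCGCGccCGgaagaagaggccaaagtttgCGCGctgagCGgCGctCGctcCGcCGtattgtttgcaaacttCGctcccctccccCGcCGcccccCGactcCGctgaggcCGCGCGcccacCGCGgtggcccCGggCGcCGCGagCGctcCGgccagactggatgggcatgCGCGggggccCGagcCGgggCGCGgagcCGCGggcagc
Fzd4 at chr7:89404116-89404415 (+) and Wnt9a at chr11:59306680-59306979 (+) had peaks nearby at E14.5 alone, and none over these bases.
Fzd4: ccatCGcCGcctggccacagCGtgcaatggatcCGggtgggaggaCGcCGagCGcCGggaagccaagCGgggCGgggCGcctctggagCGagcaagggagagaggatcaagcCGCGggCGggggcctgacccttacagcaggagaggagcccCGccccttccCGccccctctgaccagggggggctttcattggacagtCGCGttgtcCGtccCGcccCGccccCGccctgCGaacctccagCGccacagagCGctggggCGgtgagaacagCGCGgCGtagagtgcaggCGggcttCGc
Wnt9a: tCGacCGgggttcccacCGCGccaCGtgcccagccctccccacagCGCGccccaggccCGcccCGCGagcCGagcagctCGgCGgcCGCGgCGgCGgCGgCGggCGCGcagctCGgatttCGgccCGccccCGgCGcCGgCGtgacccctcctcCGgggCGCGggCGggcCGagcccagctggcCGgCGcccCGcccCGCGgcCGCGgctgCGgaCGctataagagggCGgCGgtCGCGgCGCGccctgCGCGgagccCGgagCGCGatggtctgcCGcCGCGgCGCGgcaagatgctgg
Dkk2 at chr3:132085042-132085341 (+) was covered over all 300 bases in each E18.5 list and uncovered in each E14.5 list.
Dkk2: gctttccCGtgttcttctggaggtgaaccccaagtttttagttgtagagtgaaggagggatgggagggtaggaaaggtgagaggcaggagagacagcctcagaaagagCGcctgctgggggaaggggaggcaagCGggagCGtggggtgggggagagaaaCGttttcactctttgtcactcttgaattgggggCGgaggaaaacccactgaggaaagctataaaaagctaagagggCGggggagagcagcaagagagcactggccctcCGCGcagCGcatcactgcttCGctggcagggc
Fzd7 at chr1:59481897-59482196 (+) and Tcf7l1 at chr6:72788996-72789295 (-) had no peak within their windows in any list.
Fzd7: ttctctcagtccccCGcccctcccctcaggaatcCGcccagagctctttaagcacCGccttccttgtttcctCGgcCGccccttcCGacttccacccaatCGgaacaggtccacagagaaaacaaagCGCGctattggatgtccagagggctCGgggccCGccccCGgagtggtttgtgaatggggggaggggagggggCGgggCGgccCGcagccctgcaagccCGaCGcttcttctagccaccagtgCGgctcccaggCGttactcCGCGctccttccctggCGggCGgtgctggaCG
Tcf7l1: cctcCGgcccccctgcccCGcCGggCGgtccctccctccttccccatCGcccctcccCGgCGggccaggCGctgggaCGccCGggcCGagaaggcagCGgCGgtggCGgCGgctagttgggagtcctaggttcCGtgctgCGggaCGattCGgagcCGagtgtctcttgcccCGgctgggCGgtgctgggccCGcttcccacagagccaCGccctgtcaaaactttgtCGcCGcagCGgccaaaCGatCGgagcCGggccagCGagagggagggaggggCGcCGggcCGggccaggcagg
The counts of CG dinucleotides in marked and unmarked members overlapped. Where a gene had several promoters in the table, the one with the most CG dinucleotides was taken. The median count of CG dinucleotides in 300 bases was 29 over the 25 members with a peak in all 4 libraries (range 6 to 53) and 25 over the 6 members without a peak (16 to 34). Over protein-coding genes it was 19 for those with a peak in all 4 libraries and 14 for those with none. Wnt9a had 58 and Fzd4 had 32, and Dkk2 had 11. The TCF/LEF core, taken as the letters CTTTG followed by AT, AA, TT or TA, was searched on both strands and occurred in 4 of the 39 promoters (10.3%) and in 16.5% of the promoters of all genes taken in the same way. For protein-coding genes the share was 14.1%, and for those with a peak in all 4 libraries it was 9.87%, close to the members' share. Of the 39 promoters, 22 and 16 were covered over all 300 bases at E14.5 against 18 and 17 at E18.5. A further 10 and 11 at E14.5 against 9 and 9 at E18.5 were free of the mark although a peak lay elsewhere in the member's windows. Cover of promoters was counted for the members only, so whether these counts differ from those of other genes was not tested.

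The Wnt ligands, the largest class, held the largest part of the covered length. Of the 19 ligands, 14 had a peak in all 4 libraries, and 16 were marked in both E14.5 libraries. Together the ligands had 99327 and 79878 bp at E14.5 against 64702 and 59022 bp at E18.5, a decrease of 31.0%, and 13 of the 16 were shorter in both E18.5 libraries. Over protein-coding genes the decrease was 46.6%, and 84.2% of the marked ones were shorter. The median percentile of the ligands' peaks was 94.0 and 92.5 at E14.5 against 91.8 and 85.3 at E18.5, where that of marked protein-coding genes was 83.7, 82.1, 78.6 and 72.9.

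The 3 ligands with the longest cover at E14.5 were Wnt6, Wnt7b and Wnt8b. Wnt6, an epidermal ligand, had 12002 and 10473 bp at E14.5 against 6934 and 5337 bp at E18.5. Wnt7b had 10304 and 9324 bp at E14.5 against 8337 and 7059 bp at E18.5. The stages did not overlap for these members. Wnt8b had 9452 and 5480 bp at E14.5 against 5743 and 5711 bp at E18.5, so the E18.5 values lay within the range of the E14.5 replicates. In E14.5 replicate 1 a single peak reached from 450 bp before the Wnt8b start to 24358 bp after it, and in the other 3 lists most of the cover lay near its second start site, in peaks that began 14487 to 14734 bp downstream.

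Wnt1, Wnt3 and Wnt3a were still covered over most of their windows at E18.5. They were picked after their values were seen, and Wnt9b and Wnt10a were covered over most of their windows too. Wnt1 had 5810 and 5242 bp at E14.5 against 5035 and 5065 bp at E18.5, a decrease of 8.61%, the smallest of any member marked in both E14.5 libraries. Its peak also reached past the gene, over 23843 and 22540 bp at E14.5 against 11139 and 21335 bp at E18.5. Wnt3 had 5967 and 6001 bp at E14.5 against 5644 and 5289 bp at E18.5. Wnt3a had 5915 and 5548 bp at E14.5 against 5077 and 4730 bp at E18.5. Each was lower in both E18.5 libraries, by 14.4% of the mean for Wnt3a. The windows of Wnt3 and Wnt3a are 6001 bp long and were nearly full at E14.5, so their covered length could not show cover beyond them. Over the whole gene, Wnt3 had 27713 and 22304 bp at E14.5 against 13600 and 11187 bp at E18.5. Over the whole gene, Wnt3a had 31198 and 18450 bp at E14.5 against 12787 and 9195 bp at E18.5. The peaks of Wnt3 stood at percentiles of 99.2 and 99.3 at E14.5 against 99.5 and 97.9 at E18.5, near the top of every list. Wnt7a, Wnt9b and Wnt10a, also marked in every library, had from 5626 to 7743 bp in the E14.5 libraries and from 4359 to 5534 bp in the E18.5 libraries, each without overlap of the stages. Wnt7a was longer at E18.5, by 1876 bp, with lists of equal covered length.

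Within the windows, the decreases were larger in other ligands than in Wnt1, Wnt3 and Wnt3a. The nearly full windows of Wnt3 and Wnt3a limit this contrast, since over the whole gene both fell by a larger share. For these genes the contrast does not extend to the whole gene. The Wnt1 gene, 3981 bp long, lay wholly under a peak in every library, so its covered length could not show change further downstream. The window of Wnt9b, 6001 bp long, was full in both E14.5 libraries. Wnt10b, whose product is known for hair follicle induction, had 4720 and 4265 bp at E14.5 against 2626 and 2515 bp at E18.5. Wnt5b had 4895 and 3082 bp at E14.5 against 1707 and 1632 bp at E18.5, but with lists of equal covered length it was longer at E18.5, by 816 bp. Wnt4 had 3439 and 2191 bp at E14.5, 430 bp in E18.5 replicate 1 and no peak in E18.5 replicate 2. At E14.5 the Wnt4 peaks flanked the start, ending 551 and 694 bp before it and beginning 444 and 439 bp after it. The shortest cover among ligands marked in both E14.5 libraries was that of Wnt9a, with 1160 and 611 bp at E14.5 and none at E18.5, and then Wnt2b, with 2594 and 2682 bp at E14.5 against 2111 and 1748 bp at E18.5 (longer at E18.5 by 874 bp with lists of equal covered length). The Wnt9a peaks lay 2582 to 1066 bp before the start and ranked at percentiles of 56.7 and 12.6.

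In 2 further ligands the stages overlapped. Wnt11 had 5188 and 3102 bp at E14.5 against 3841 and 2219 bp at E18.5. Wnt16 had 5539 and 3418 bp at E14.5 against 2229 and 3469 bp at E18.5. Wnt2 had 2120 bp in E14.5 replicate 1 and 573 bp in E18.5 replicate 2 and no peak in the other lists, and Wnt8a had 477 bp in E14.5 replicate 1 alone. The replicates of a stage disagreed on the presence of a peak for these last 2 genes. Wnt5a, a ligand known for signalling without β-catenin in the embryonic mesenchyme, was the 1 ligand with no peak in any list.

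The Frizzled receptors were marked in part. Of the 10 receptors, which bind the ligands at the cell surface, 5 were marked in both E14.5 libraries and 2 in both E18.5 libraries. Together the receptors had 12619 and 10269 bp at E14.5 against 5531 and 3294 bp at E18.5, a decrease of 61.4%, and all 5 marked receptors were shorter in both E18.5 libraries. Over protein-coding genes the decrease was 46.6%, and 84.2% of the marked ones were shorter. Fzd10 had 6001 and 5124 bp at E14.5 against 4503 and 3090 bp at E18.5. Fzd9 had 1620 and 1696 bp at E14.5 against 1028 and 204 bp at E18.5, with every peak inside the gene, beginning 359 to 714 bp after the start. These were the receptors with a peak in every library.

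Fzd3, Fzd4 and Fzd8 were marked in both E14.5 lists but in no E18.5 list. Fzd4 (chr7:89404355-89413134, + strand), a receptor also used by the ligand Norrin, had 2987 and 2502 bp, in peaks on both sides of a free start. Fzd3 (chr14:65192449-65262463, − strand) had 734 and 615 bp, upstream of its start. Fzd8 had 474 and 332 bp. Their highest peaks stood at percentiles of 77.9 and 66.1 for Fzd4, 72.8 and 51.6 for Fzd8 and, low in the lists, 8.73 and 4.56 for Fzd3. Another protein-coding gene, Tmem135, starts within the Fzd4 windows, so a peak there cannot be assigned to one of the genes alone. Fzd5 and Fzd6 had 474 and 329 bp, respectively, in E14.5 replicate 1 and no other peak. Fzd1, Fzd2 and Fzd7 had none.

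The secreted antagonists were mostly marked, and Dkk2 went the other way. Of the 13 antagonists, 9 were marked in both E14.5 libraries, 8 in both E18.5 libraries and 7 in all 4. Together the antagonists had 42202 and 35261 bp at E14.5 against 26835 and 18154 bp at E18.5, a decrease of 41.9%. Over protein-coding genes the decrease was 46.6%, and 84.2% of the marked ones were shorter in both E18.5 libraries. All 9 marked antagonists were shorter in both E18.5 libraries. The longest cover was that of Notum, the enzyme that removes the ligands' lipid, with 7716 and 6368 bp at E14.5 against 5277 and 3450 bp at E18.5. Its peaks stayed at percentiles from 94.7 to 96.8 in the 4 lists.

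The Sfrp genes, whose products bind ligands outside the cell, differed among themselves. Sfrp1 had 5824 and 4379 bp at E14.5 against 3286 and 2573 bp at E18.5. Sfrp5 had 6001 and 4162 bp at E14.5 against 3468 and 2687 bp at E18.5. With lists of equal covered length both turned, with Sfrp1 longer at E18.5 by 2802 bp and Sfrp5 by 3078 bp. Sfrp2 had 4809 and 4332 bp at E14.5 against 1273 and 920 bp at E18.5, a decrease of 76.0%, and the main peak that remained lay over the start. Sfrp4 (chr13:19623104-19632994, + strand) had 1645 and 504 bp at E14.5 and none at E18.5, at percentiles of 54.1 and 1.83. Frzb, the relative of the Sfrp genes also called Sfrp3, had 2416 and 2144 bp at E14.5, 872 bp in E18.5 replicate 1 and no peak in E18.5 replicate 2.

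Among the co-receptor antagonists, Dkk1 had 4888 and 2933 bp at E14.5 against 2452 and 1992 bp at E18.5. Sost had 4510 and 4393 bp at E14.5 against 4183 and 2921 bp at E18.5. Wif1, which binds ligands, had 4393 and 4205 bp at E14.5 against 3740 and 1310 bp at E18.5, in peaks on both sides of its start, which was free in every list. Dkk1 and Wif1 were longer at E18.5, by 756 and 1197 bp, with lists of equal covered length. Dkk2 (chr3:132085292-132180304, + strand) had no E14.5 peak, but 2284 and 2301 bp in the E18.5 libraries. In both E18.5 libraries a single peak covered its start, from 422 and 402 bp before it to 1861 and 1898 bp after it, at percentiles of 60.5 and 37.4. Dkk2 was the 1 member marked at E18.5 by both replicates without any E14.5 peak, a pattern that 0.0911% of protein-coding genes (20 genes) showed. Covered length was higher in both E18.5 libraries at 0.670% of the protein-coding genes with a peak in any list, and among the members at Dkk2 alone. The call rests on low peaks. With a −log10 q-value of at least 3 the Dkk2 peak of E18.5 replicate 2 was lost and the mean difference was 1142 bp in place of 2293 bp, and with at least 5 no Dkk2 peak was left. Sostdc1 had 1841 bp in E14.5 replicate 2 and no other peak, and Dkk3 and Dkk4 had none.

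Of the 7 R-spondins and Lgr receptors, 6 were marked in both E14.5 libraries and 4 in all 4. Together they had 30804 and 21517 bp at E14.5 against 13806 and 10486 bp at E18.5, a decrease of 53.6%. Over protein-coding genes the decrease was 46.6%. Rspo1 had 8208 and 7433 bp at E14.5 against 5704 and 4224 bp at E18.5. Rspo2 had 5654 and 3715 bp at E14.5 against 1773 and 1392 bp at E18.5. Rspo4 had 5218 and 3480 bp at E14.5 against 2300 and 1206 bp at E18.5. In these 3 genes the stages did not overlap, and 84.2% of the marked protein-coding genes were likewise shorter in both E18.5 libraries. The decreases of Rspo2 and Rspo4 (66.2% and 59.7%) were above the median of the members. The median per marked protein-coding gene was 58.2%, close to the decrease of Rspo4. With lists of equal covered length, Rspo2 and Rspo4 were longer at E18.5 instead, by 235 and 603 bp.

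Rspo3, Lgr5 and Lgr6 showed other patterns. Rspo3 had 2292 and 736 bp at E14.5 and 332 bp in E18.5 replicate 1 alone, although the percentile of that last peak, 66.7, was above those of its E14.5 peaks, 17.3 and 35.7. With lists of equal number, lists of equal covered length or a −log10 q-value of at least 3, Rspo3 was longer at E18.5 by 166 bp. Lgr5, a receptor known from hair follicle stem cells, had 4823 and 2577 bp at E14.5 and 704 bp in E18.5 replicate 1 alone. Lgr6 had 4609 and 3576 bp at E14.5 against 2993 and 3664 bp at E18.5, and its stages overlapped. Lgr4 had no peak in any list.

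Among the 9 feedback genes and TCF/LEF factors, 4 were marked in both E14.5 libraries, 3 in all 4, and 4 in none. Together they had 16027 and 11316 bp at E14.5 against 7638 and 7629 bp at E18.5, a decrease of 44.2%. Over protein-coding genes the decrease was 46.6%. The stages overlapped at Lef1 and Axin2. Lef1, the TCF/LEF factor of the early dermis, had 3856 and 3622 bp at E14.5 against 3021 and 3752 bp at E18.5. Its main peak ended within 75 bp of the start and reached 8675, 5432, 6404 and 5346 bp upstream of it, at percentiles of 99.3, 99.6, 95.1 and 88.3. A second, shorter Lef1 peak began 2171 to 2245 bp after the start in 3 of the 4 lists, all but E18.5 replicate 1. From single-cell RNA-seq of whole skin, the paper lists both Lef1 and Nkd1 as expressed in upper progenitors at E14.5. The libraries here are of cultured bulk cells, so a peak does not show that a gene was silent in the dermis. Axin2, a negative regulator that is itself a general target of the pathway, had 3054 and 2362 bp at E14.5 against 2390 and 2163 bp at E18.5. The Axin2 peak began 1372 to 1472 bp after the gene's start in all 4 lists, so that the promoter itself was free of the mark.

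Tcf7 had 3844 and 3092 bp at E14.5 against 2033 and 993 bp at E18.5, and with lists of equal covered length it was longer at E18.5 by 1232 bp. Nkd1, which binds Dishevelled, had 3667 and 2240 bp at E14.5, 194 bp in E18.5 replicate 1 and no peak in E18.5 replicate 2. The Nkd1 peaks at E14.5 lay on both sides of the start, and the 1 that remained lay inside the gene, 777 to 970 bp after it. Znrf3, a ubiquitin ligase that removes Frizzled receptors, had 1606 bp in E14.5 replicate 1 and 721 bp in E18.5 replicate 2, and the replicates of each stage disagreed on its presence. Tcf7l1, Tcf7l2, Nkd2 and Apcdd1 had no peak in any list.

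**Figure D3:**
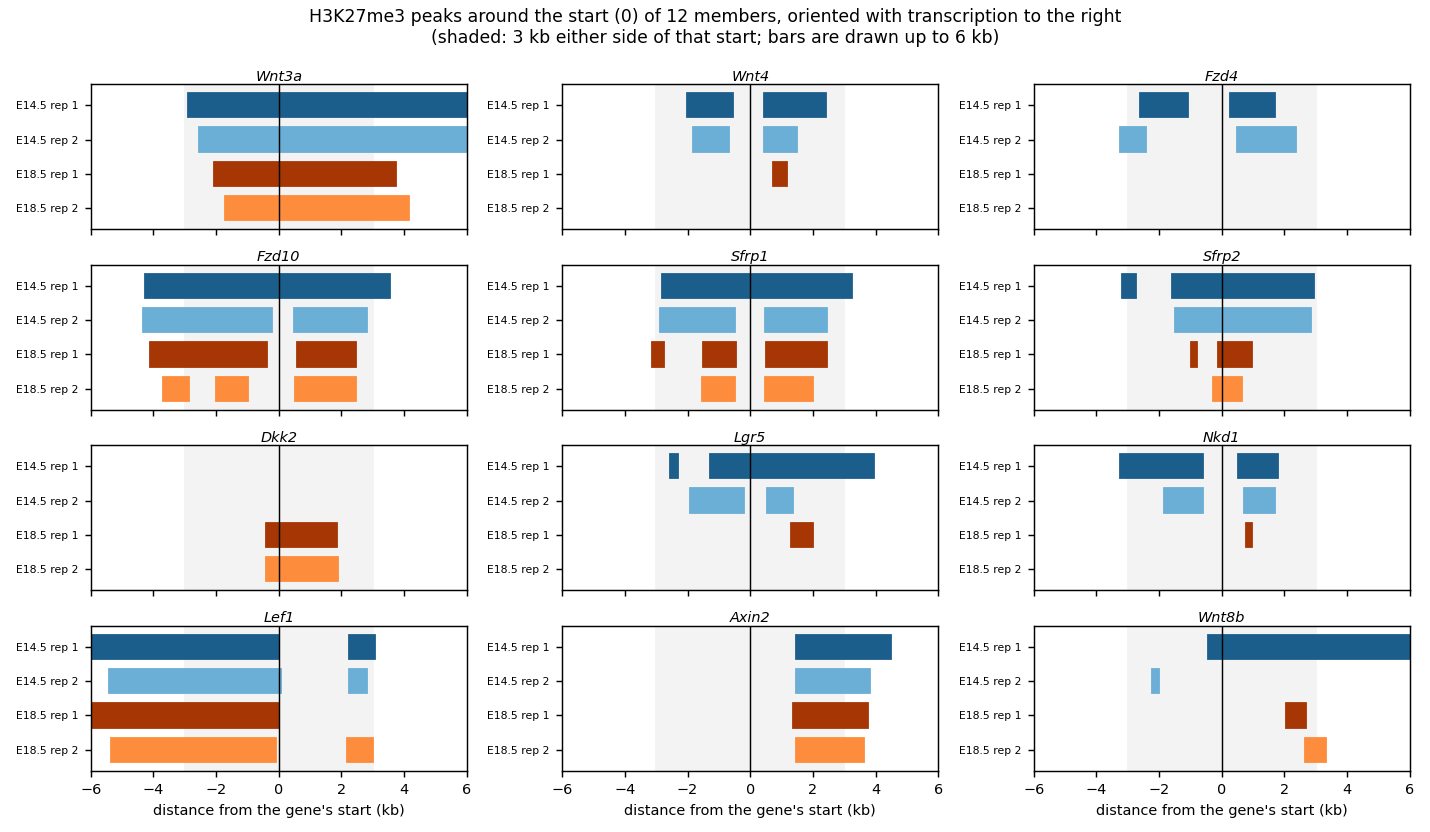
H3K27me3 peaks (bars, 1 row a library) around the start of 12 members, in kb from the start with transcription to the right and 3 kb either side shaded. Peaks of Wnt4, Fzd4 and Nkd1 sit on both sides of a free start, the Dkk2 bars appear at E18.5 alone, the long upstream Lef1 bars end at the start, and the Axin2 bars begin about 1.4 kb inside the gene in every library.

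In all, 5 of the 40 members marked in both E14.5 libraries (12.5%) had no peak at E18.5, namely Wnt9a, Fzd3, Fzd4, Fzd8 and Sfrp4. By class these were 1 of 16 ligands, 3 of 5 Frizzled receptors, 1 of 9 antagonists, 0 of 6 R-spondins and Lgr receptors and 0 of 4 feedback genes and TCF/LEF factors. The background was 23.8% of marked protein-coding genes and 25.1% of all marked genes. The differences between the classes were not tested, and the split by class changed with the settings given below. The mean percentile of these 5 members at E14.5 was under 50 in 3 of them and between 50 and 75 in Fzd4 and Fzd8. Of the 28 marked members with a mean covered length of 3000 bp or more at E14.5, 0 were without a peak at E18.5. Of the 9 with 1000 to 3000 bp, 2 were (Fzd4 and Sfrp4), and all 3 with less than 1000 bp were (Wnt9a, Fzd3 and Fzd8). Among protein-coding genes the shares in these classes of length were 3.26%, 35.3% and 73.1%. When each list was limited to its 7107 highest peaks by q-value, the length of the shortest list, 34 members were marked at E14.5 and Fzd4 was the 1 member marked at E14.5 only. Without E18.5 replicate 1, which has the longer of the E18.5 lists, 10 members were marked at E14.5 only, the added ones being Wnt4, Frzb, Rspo3, Lgr5 and Nkd1. Without E14.5 replicate 2 there were 8, with Wnt8a, Fzd5 and Fzd6 added. With peaks of at least 1000 bp there were again 5, but these were Wnt4, Fzd4, Frzb, Lgr5 and Nkd1. With a −log10 q-value of at least 5 there were 11, and Wnt9a, Fzd3, Fzd4, Fzd8 and Sfrp4 were not among them.

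**Figure D4:**
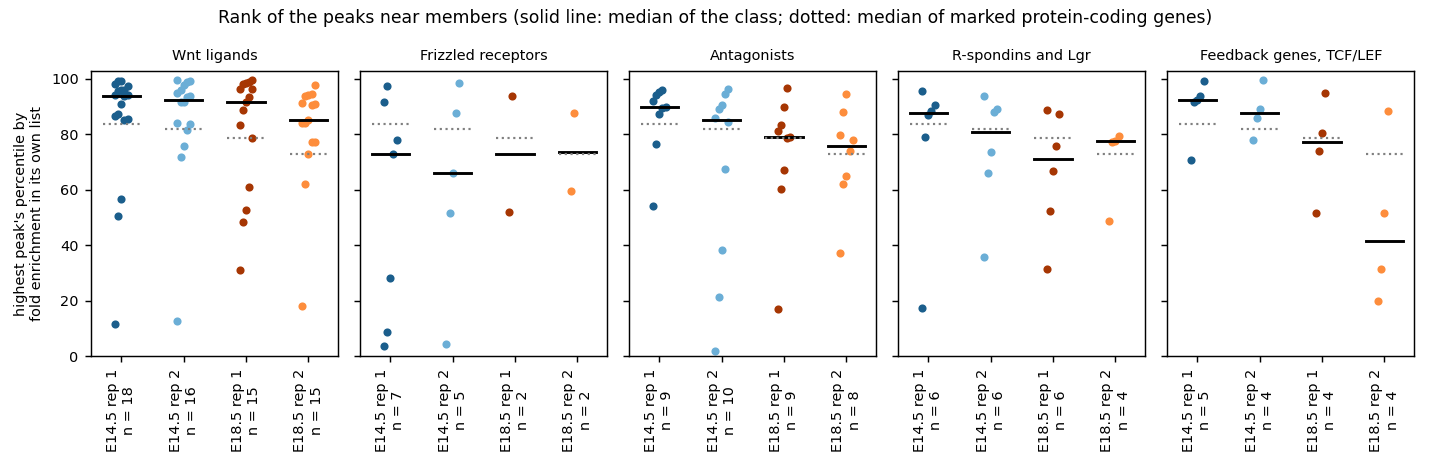
Percentile by fold enrichment of the highest peak near each marked member (points, n below each column) within its own list, by class and library, with the class median (solid line) and the median of marked protein-coding genes (dotted). Ligands sit highest, with medians of 94.0, 92.5, 91.8 and 85.3, and feedback genes and TCF/LEF factors in E18.5 replicate 2 sit lowest, at 41.5 over 4 genes.

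Over the members together, a larger part of the cover lay downstream of the start at E18.5 than at E14.5. The gene's start lay under a peak in 29 and 22 members at E14.5 and in 22 and 20 at E18.5, and it was free but flanked on both sides in 7 and 10 members at E14.5 against 5 and 8 at E18.5. Of the covered length within 3000 bp of the start, 54.2% and 56.3% lay downstream at E14.5 against 59.9% and 63.8% at E18.5 over the 40 marked members. Over the 4270 marked protein-coding genes these shares were 52.6% and 54.7% at E14.5 against 57.2% and 58.5% at E18.5, so the members moved in the direction of the background. Not every class did. Feedback genes and TCF/LEF factors had 34.6% and 42.5% downstream at E14.5 against 35.0% and 41.1% at E18.5. Frizzled receptors had 56.1% and 57.8% against 52.5% and 65.0%. The other classes were higher in both E18.5 libraries. In bins of 100 bp, the largest number of members under a peak was 36 and 33 at E14.5, at 1250 and 1150 bp after the start, and 30 and 22 at E18.5, at 950 and 550 bp. At the start itself the numbers were 29 and 22 at E14.5 against 22 and 20 at E18.5. The counts of starts and of bins were made for the members only. Whether they differ from those of other marked genes was not tested.

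**Figure D5:**
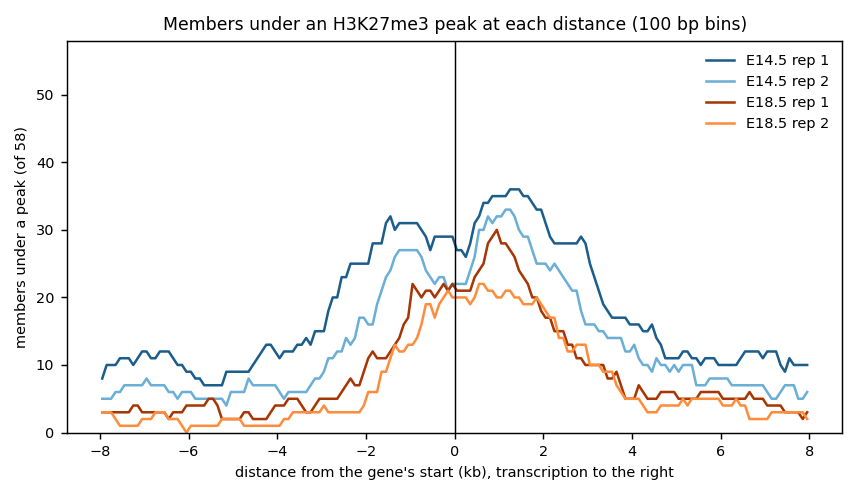
Number of the 58 members under an H3K27me3 peak (y axis) in 100 bp bins by distance from the gene's start (x axis, kb, transcription to the right), 1 line a library. In E14.5 replicate 1 the line dips at the start and is highest, at 36 members, 1250 bp downstream, and the E18.5 lines are narrower than the E14.5 lines and reach 30 and 22 members.

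Further genes of the pathway were examined beside the 58 members. Of 55 such genes, chosen by role, 16 (29.1%) were marked in both E14.5 libraries, 10 in all 4, and 35 had no peak in any list. Among protein-coding genes 19.5% were marked in both E14.5 libraries and 12.0% in all 4, and 74.1% had no peak, so a lack of peaks is common. The 35 include the co-receptors Lrp5 and Lrp6, the ligand carrier Wls, the Dishevelled genes Dvl1, Dvl2 and Dvl3, the destruction complex genes Apc, Axin1, Gsk3a and Gsk3b, and Ctnnb1, the gene for β-catenin. Marked in all 4 lists were Apc2, Tle1, Tle4, Rnf43, Kremen2, Draxin, Dact2, Celsr1, Celsr3 and Sp5. Tle2, a corepressor of TCF/LEF factors, and Ndp, the gene for the Fzd4 ligand Norrin, were marked at E14.5 in both replicates but had no E18.5 peak. Ndp had 1338 and 1209 bp at E14.5, and Tle2 had 1860 and 953 bp. Sp5, a transcription factor and a target of the pathway, was under peaks over all 6001 bp of its windows in every list.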

How the data were processed

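H3K27me3 ChIP-seq peak lists of 4 libraries of wild-type mouse dermal fibroblasts were used, 2 a stage. The submitters' processing notes name Bowtie2 2.3.5.1, SAMtools 1.9, MACS2 2.2.7.1, deepTools 3.5.1 and the build mm10. The authors called broad peaks in each library at a q-value cutoff of 0.01, without pooling replicates. The control for the peak call is not given in the sources used here, and the methods do not say whether the subsampling of E18.5 libraries covers these. The labels name sonication and an Ion Torrent kit where the methods name enzymatic digestion and a Kapa kit.

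For each peak the authors deposited a fold enrichment, the ratio of pileup to background, with a −log10 p-value, a −log10 q-value and a score. The deposited score is the −log10 q-value times 10 and was not used. Fold enrichment was used only as a rank within a list, and the −log10 values only as thresholds in the alternatives. The lists hold no counts, so depth and counting error are unknown.

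Start sites (132758) came from GENCODE vM21, with 55450 genes, 21951 of them protein-coding. The last peak on chromosome 1 ends at 195372050. A member was marked at a stage when peaks of both replicates overlapped its windows of 3000 bp by at least 1 bp. Distances are from the 5′ end of the gene record. The design allowed exact permutation tests over 2 against 2 libraries (smallest p 0.333), and no test over the members was made. Values in every library were given for members marked at E14.5 only, in 1 E18.5 library, in a single E14.5 library or at E18.5 only, for members whose stages overlapped, and per class for the 3 with the longest and the 2 with the shortest cover at E14.5. Wnt1, Wnt3, Wnt3a, Wnt5b, Wnt10b, Sfrp2, Wif1, Dkk1, Sost and Sp5 were added after their values were seen. The members and lists were chosen with earlier results of these data known. Python 3.11.15, numpy 2.4.6 and pandas 2.3.3 were used. The scoring was tested on simulated data with peaks planted at 400 genes, and 100% of the presence calls and covered lengths were recovered. The input library was not analysed here.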

Additional observations from a re-analysis of the deposited data

How the results depend on the processing

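Thresholds, window, list size, the rule for a stage and the libraries were varied. The 40 members marked at E14.5, the 31 at E18.5, the 34 covered less and the decrease of 39.6% each changed with some of these settings. With a −log10 q-value of at least 3, 3 members were marked at E14.5 only (Wnt4, Fzd4 and Fzd8). With at least 5, 29 members were marked at E14.5, 12 at E18.5 and 11 at E14.5 only, and the decrease was 61.5%. The 11 were Wnt2b, Wnt4, Wnt10a, Wnt16, Fzd9, Dkk1, Sost, Rspo2, Axin2, Tcf7 and Nkd1. With a window of 1000 bp, 20 members were covered less and the decrease was 24.2%. With lists of equal number, 1 member was marked at E14.5 only (Fzd4). With lists of equal covered length, 16 were marked at E14.5, 1 at E14.5 only (Nkd1), 14 were covered less and the decrease was 4.84%. With a peak in either replicate, 9 were marked at E14.5 only. Of the settings chosen after seeing the data, the gene body in place of the windows and a limit of 5 on the −log10 p-value each left 2 (Fzd4 and Sfrp4, and Fzd4 and Fzd8). The cause of these shifts was not tested. Leaving out 1 library gave 40 to 45 members at E14.5, 31 to 36 at E18.5, 5 to 10 at E14.5 only, 35 to 45 covered less, and decreases of 31.4% to 46.0%. Taken within replicate numbers, as a block, the decrease was 39.4%. The labels do not say that a number marks a shared animal or batch. The deviations of same-numbered libraries had r = −0.04 over 40 members, and replicate 1 was the longer in 36 of them at E14.5 and 30 at E18.5, so whether the numbers mark a shared batch cannot be told from these data.

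Covered length turned from shorter to longer at E18.5 with lists of equal covered length for Wnt2b (874 bp), Wnt5b (816 bp), Wnt7a (1876 bp), Sfrp1 (2802 bp), Sfrp5 (3078 bp), Wif1 (1197 bp), Dkk1 (756 bp), Rspo2 (235 bp), Rspo3 (166 bp), Rspo4 (603 bp) and Tcf7 (1232 bp), and for Rspo3 also with a −log10 q-value of at least 3 and with lists of equal number (166 bp each). Of the 490 recomputed differences of the 35 members whose stages did not overlap, 477 kept their sign or were 0, and 13 turned. A difference of 0 is one that vanished, and these were not counted apart, so the 477 do not measure stability. With a window of 1000 bp the differences of Wnt1, Wnt3, Wnt3a, Wnt7a, Wnt9a, Wnt9b and Fzd8 were 0. With a −log10 q-value of at least 5 those of Wnt9a, Fzd3, Fzd4, Fzd8, Sfrp4, Frzb, Rspo3 and Dkk2 were 0. The lists give no depth, so a peak absent from a list may lie just under its threshold.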

Other observations

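The 19 ligands include 4 pairs that lie next to each other in the genome, and the stretch between the starts of a pair was covered to different extents. Between Wnt6 and Wnt10a, whose starts are 19624 bp apart on the same strand, 76.8% and 64.1% lay under peaks at E14.5 against 30.6% and 23.2% at E18.5. Between Wnt3 and Wnt9b, which are divergent with starts 24329 bp apart, the shares were 64.7% and 47.2% at E14.5 against 35.4% and 21.8% at E18.5. Between Wnt1 and Wnt10b, divergent with starts 11707 bp apart, they were 31.8% and 20.5% at E14.5 against 20.9% and 19.7% at E18.5, so the stages overlapped in this pair. In E14.5 replicate 2, a single peak reached into the windows of both Wnt6 and Wnt10a.

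The starts of Wnt3a and Wnt9a, which are divergent, are 16176 bp apart, and 64.0% and 51.0% of the stretch lay under peaks at E14.5 against 30.2% and 20.1% at E18.5. The Wnt3a start was under a peak in every library, and the Wnt9a start was free of peaks in every library. These pairs were chosen for mention after their positions and values were seen.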
